A study of Rattus norvegicus with 8 samples.

Results

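Ion channel genes of neurons and glia were examined in rat brain tissue after injection of an inactivated baculovirus vector or of saline into the striatum. The set held 46 genes: pore-forming and auxiliary subunits of potassium, sodium and calcium channels and 1 hyperpolarization-activated channel. Members were found by gene symbol, as probe sets whose platform annotation names 1 single symbol of the set. This gave 83 probe sets for 45 of the 46 genes, out of 14217 genes that have such a probe set. Kcnn2, which encodes a small-conductance calcium-activated potassium channel, had none in the annotation used here.

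The tissue came from adult male Wistar rats of 250-300 g, whose age is not given in the labels. The striatum is the basal ganglia's main entry point for cortical and dopaminergic signals. In the baculovirus group it was injected with 50000000 particles in 5 µl of vector that ultraviolet light of 254 nm had inactivated over 1 hour. The control group was given phosphate-buffered saline (PBS), also 5 µl. Both groups thus carry the needle injury, tissue was taken 48 hours later, and each group has 4 Affymetrix Rat Genome 230 2.0 arrays. By the design text 7 rats were used and PBS went into the opposite hemisphere, so control tissue may come from animals that also received vector. With 8 arrays and 7 rats, some arrays share an animal unless tissue was pooled. The labels tie no array to a rat, so the tests treat the arrays as independent. They measure the spread between these samples only.

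Potassium channels let potassium leave the cell and so set the resting potential, end each action potential and limit firing rate. Voltage-gated sodium channels carry the upstroke of the action potential, and voltage-gated calcium channels turn depolarization into transmitter release and intracellular signals. Striatal projection neurons are known for a very negative resting potential held by inward rectifier potassium channels and for A-type potassium currents that delay their first spike.

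The arrays bore out the labelled tissue. Snap25, a synaptic protein of neurons, stood between 1578 and 1944 on the deposited linear intensity scale, and the striatal signalling gene Ppp1r1b between 976 and 1393. All 13 striatal projection neuron markers on the array were above the level filter, with mean intensities from 141 to 1556. Markers of cortical excitatory neurons were present too: Slc17a7, a vesicular glutamate transporter, reached only 454 on PBS replicate 3, against 909 or more, and up to 1270.5, on the 7 arrays besides it. The choroid plexus gene Ttr read 47.7 on PBS replicate 4, against 1563 to 1968 elsewhere. Bacterial control transcripts, which are added at hybridization, averaged 7.04 to 7.77 (log2 of intensity + 16, over 9 probe sets) on the baculovirus arrays and 7.84 to 8.09 on the PBS arrays (exact two-sided permutation p = 0.0286, the smallest that 4 against 4 arrays can give). The difference between 3′ and 5′ probe sets of beta-actin, a sign of RNA quality, was 0.499 ± 0.161 and 0.515 ± 0.0984 on the log2 scale (SD, n = 4 each, exact two-sided permutation p = 0.886). The part of these values in the results below was not tested.

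Of the 45 genes, 35 were tested, each through its brightest probe set, and 10 had a mean below the level filter, which lies at an intensity of about 26.0. The nearest to it were Kcnn1 above (mean 28.2) and Kcnq3 below (23.7). No channel gene passed the test. With limma, 0 of 35 passed an adjusted p of 0.05, where the background over all 18625 probe sets was 0%, and their adjusted p ran from 0.705 to 0.998. The methods' t-test also left 0 probe sets after adjustment, and at an unadjusted p under 0.05 limma gave 1254 probe sets. The mean was higher after inactivated baculovirus for 16 members (45.7%) and lower for 19, while 55.7% of all 10539 genes tested had a higher mean. The median difference of the members was -0.01 on the log2 scale, beside 0.02 over all genes tested, and single members ran from -0.28 for Kcna4 to 0.36 for Hcn2. In bulk tissue, fewer cells of a type and less RNA per cell cannot be told apart.

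**Figure D1:**
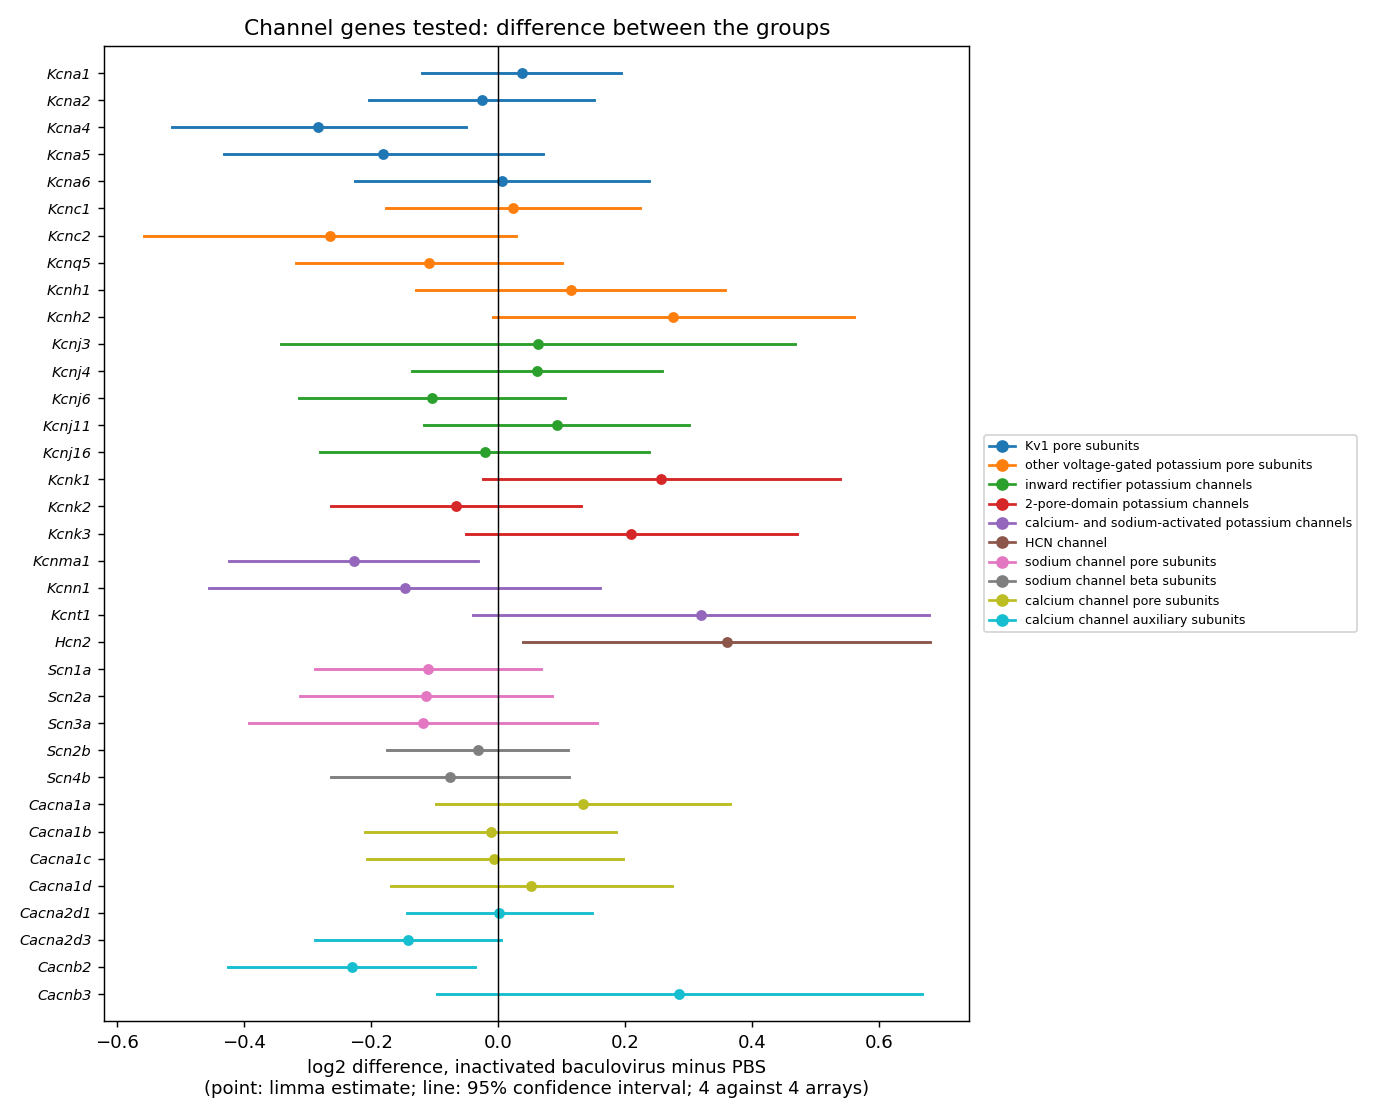
Difference in log2(intensity + 16) between 4 inactivated baculovirus and 4 PBS arrays for the 35 channel genes tested, with points for limma estimates and lines for 95% confidence intervals, coloured by channel class. The intervals of Kcna4, Kcnma1 and Cacnb2 lie below 0 and that of Hcn2 above 0 before any adjustment, and none of the genes passed after it.

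The precision allows a statement on size. The 95% interval lay within a 1.25-fold difference to either side for 19 of the 35 genes, and within 1.5-fold for 32. The lowest bound of any member was -0.56 (Kcnc2) and the highest 0.68 (Hcn2, with Kcnt1 next to it). These folds are on the log2(intensity + 16) scale, which understates differences of dim probe sets.

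Before adjustment, 1 member was higher at a p under 0.05 (2.86%, against a background of 2.66% of all genes tested) and 3 were lower (8.57%, against 3.92%). The higher one was Hcn2, and the lower ones were Kcna4, Kcnma1 and Cacnb2. The count of lower genes was 1 without PBS replicate 2 (Kcnma1) or PBS replicate 3 (Kcnn1). The count of higher genes was 0 without baculovirus replicate 2 or PBS replicate 1 or 3, 2 without baculovirus replicate 1 or 4 or PBS replicate 4, and 4 without PBS replicate 2. Hcn2 was among them without baculovirus replicate 1 or PBS replicate 2 or 4, and not with another array left out. Kcna4 was no longer under that p without baculovirus replicate 1 or PBS replicate 2 or 3. The same held for Kcnma1 without baculovirus replicate 2, 3 or 4 or PBS replicate 3, and for Cacnb2 without baculovirus replicate 4 or PBS replicate 2 or 3. The share of all genes under that p is not given with an array left out, so these counts have no background. Among the 35 members tested, the values of the 2 groups did not overlap for 3, each lower after inactivated baculovirus: Kcnma1, Cacna2d3 and Cacnb2. They make up 8.57% of the members tested, where 2.31% of all genes tested were separated in that direction. Of the 35, 0 were separated with the higher values after inactivated baculovirus, against a background of 1.87%. Below the level filter, and so not tested, Kcnb2 was separated in that direction. The members were chosen with earlier results of these data known, so their shares beside the background are a description only.

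Promoters of 4 of these channels are printed. Hcn2 and Cacnb3 were low on the same PBS arrays, and Kcna4 and Kcnma1 had lower means after inactivated baculovirus. Each promoter is the 250 bases before the RefSeq gene start in GRCr8, 5′ to 3′ on the gene's strand, with capitals marking the GC box GGGCGG on either strand. Those of Hcn2, Cacnb3 and Kcnma1 are rich in G and C and hold GC boxes, unlike that of Kcna4. The Hcn2 window is chr7:10639458-10639707, minus strand, with 71.6% G and C. The Cacnb3 window is chr7:131666301-131666550, plus strand, with 76.4%. The Kcna4 window is chr3:114215086-114215335, plus strand, with 42.8% and no GC box. The Kcnma1 window is chr15:351675-351924, plus strand, with 79.6%.
Hcn2: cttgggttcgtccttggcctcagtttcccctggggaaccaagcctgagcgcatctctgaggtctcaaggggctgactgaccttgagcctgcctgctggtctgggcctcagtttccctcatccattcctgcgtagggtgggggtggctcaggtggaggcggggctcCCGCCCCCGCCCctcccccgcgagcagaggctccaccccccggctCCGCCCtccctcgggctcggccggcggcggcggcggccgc
Cacnb3: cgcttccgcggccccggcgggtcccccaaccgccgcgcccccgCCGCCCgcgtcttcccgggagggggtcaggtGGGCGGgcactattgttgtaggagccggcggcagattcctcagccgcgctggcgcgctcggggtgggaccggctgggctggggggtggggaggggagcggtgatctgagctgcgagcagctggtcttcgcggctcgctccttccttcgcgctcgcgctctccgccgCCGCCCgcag
Kcna4: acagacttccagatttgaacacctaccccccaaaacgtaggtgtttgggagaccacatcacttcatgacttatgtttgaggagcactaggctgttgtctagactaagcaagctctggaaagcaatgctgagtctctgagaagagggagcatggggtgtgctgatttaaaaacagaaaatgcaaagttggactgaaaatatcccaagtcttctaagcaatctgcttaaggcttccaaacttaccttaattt
Kcnma1: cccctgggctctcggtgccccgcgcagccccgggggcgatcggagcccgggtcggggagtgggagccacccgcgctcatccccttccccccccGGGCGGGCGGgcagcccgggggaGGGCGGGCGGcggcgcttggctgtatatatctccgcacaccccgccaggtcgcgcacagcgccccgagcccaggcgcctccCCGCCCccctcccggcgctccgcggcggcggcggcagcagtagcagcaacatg

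RefSeq's table held 40 such windows for 34 of the 46 channel genes, several of them alternative starts of 1 gene. Their median content of G and C was 65.8%, with a range from 33.6% to 88.8%, beside 51.2% over all 33469 windows. A GC box was in 20 of the 40 (50.0%) and in 30.5% of all windows. The TATA box TATAAA was in 0 of the 40 and in 12.9% of all, and the cyclic AMP response element TGACGTCA in 0 of the 40 and in 1.59%. The letters TTCAGCAC, the start of the element bound by the neuronal gene repressor REST, were in 1 window (2.5%), that of Kcna5, and in 0.855% of all. Both strands were searched in each case. These matches describe the letters in a short window and say nothing of binding.

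Kv1 channels open near threshold and cluster at axons. Kcna4 encodes the member of this family that carries an A-type, rapidly inactivating current. On baculovirus replicates 1 to 4 it measured 72.0, 82.5, 76.3 and 83.0 in intensity, and on PBS replicates 1 to 4 it measured 78.6, 107, 110.3 and 102. PBS replicate 1 lay inside the baculovirus range and the other 3 PBS arrays above it. The means were 78.5 ± 5.26 and 99.5 ± 14.4 (SD, n = 4 each), a log2 difference of -0.28 (95% interval -0.51 to -0.05, limma adjusted p = 0.705).

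The other Kv1 members differed less. Kcna1, a delayed rectifier of axons whose loss causes episodic ataxia, measured 454, 484, 446 and 482 after inactivated baculovirus and 463, 474, 408 and 474 after PBS. PBS replicate 3 stood apart as the lowest, and the remaining 7 arrays spanned 446 to 484. Its log2 difference was 0.04 (95% interval -0.12 to 0.19), which turned to -0.013 without PBS replicate 3. Kcna2, its partner in axonal channels, stood at -0.03 ± 0.08 (log2 difference ± SE), Kcna5 at -0.18 ± 0.12 and Kcna6 at 0.01 ± 0.11. Kcna3, best known from T cells and microglia, was below the level filter at 22.0 ± 4.01 against 20.5 ± 6.68 (SD, n = 4 each).

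Among the other voltage-gated potassium channels, the mean was higher for 3 of 5 tested and lower for 2. Kcnh2 encodes the ERG channel, whose slow closing shapes repolarization in heart and brain. It measured 69.5, 58.5, 49.5 and 54.5 after inactivated baculovirus and 47.9, 53.3, 31.7 and 48.8 after PBS. PBS replicate 3 was the lowest of the 8 arrays, and baculovirus replicate 3 lay inside the PBS range. The log2 difference was 0.28 (95% interval -0.008 to 0.56, limma adjusted p = 0.737) and was 0.16 without PBS replicate 3.

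Kcnc1 and Kcnc2 encode the Kv3 channels that let fast-spiking interneurons fire at high rates. Kcnc1 measured 314 ± 33.1 against 308 ± 27.8 (SD, n = 4 each), a log2 difference of 0.02 ± 0.09 (SE). Kcnc2 ran from 174 to 261 after inactivated baculovirus and from 203 to 306 after PBS. Those ranges overlapped between 203 and 261, and the log2 difference was -0.265 (95% interval -0.56 to 0.03). The other tested probe set of Kcnc2 gave -0.025 ± 0.142 (SE). Kcnq5, a subunit of the muscarine-sensitive M current, stood at -0.11 ± 0.10, and Kcnh1, the EAG channel, at 0.115 ± 0.11. Kcnb2 and Kcnq3 were below the level filter. Kcnq3 had means of 21.1 ± 5.30 and 26.2 ± 4.82 (SD, n = 4 each). Kcnb2 had 4.33 ± 0.683 and 2.84 ± 0.380, with groups that did not overlap, at a level too low to be tested.

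Inward rectifiers, which pass potassium near the resting potential, had 3 of 5 tested members higher and 2 lower, and the largest difference among them was -0.10. Kcnj4 encodes a strong rectifier found in striatal projection neurons. It measured 178, 194, 199 and 222 after inactivated baculovirus and 185, 196, 168 and 209 after PBS. The 2 groups covered nearly the same range, with a log2 difference of 0.06 (95% interval -0.14 to 0.26). It was 0.0088 without baculovirus replicate 4, 0.0094 without PBS replicate 3, and 0.106 without baculovirus replicate 1 or PBS replicate 4. Kcnj16, a pH-sensitive subunit of glial and epithelial channels, measured 75.7, 79.6, 64.6 and 59.5 against 76.3, 85.6, 58.9 and 64.6. Its log2 difference of -0.02 (95% interval -0.28 to 0.24) changed sign with 4 of the single arrays left out, with values from -0.092 to 0.055 over all 8. Kcnj10, its usual partner in astrocytes, was below the level filter at 3.20 to 20.9 on the 8 arrays.

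Kcnj3, Kcnj6 and Kcnj9 encode subunits of the G protein-gated channels through which dopamine, GABA and opioid receptors hyperpolarize neurons. Kcnj6 measured 93.6, 119, 109 and 95.5 after inactivated baculovirus and 116, 119, 116 and 101 after PBS. 3 of the 4 PBS values lay within the baculovirus range and PBS replicate 2 at its upper edge, with a log2 difference of -0.10 (95% interval -0.31 to 0.11), which ran from -0.061 without baculovirus replicate 1 to -0.16 without baculovirus replicate 2. Kcnj3 ran from 61.2 on baculovirus replicate 4 and 63.4 on PBS replicate 1 to 121 on baculovirus replicate 1, and its log2 difference was 0.06 ± 0.19 (SE). Kcnj9, at 24.5 ± 11.6 against 17.3 ± 6.30 (SD, n = 4 each), and Kcnj2, at 17.7 ± 6.29 against 14.4 ± 3.41, were below the level filter. Kcnj11, the pore of the ATP-sensitive channel, stood at 0.09 ± 0.10.

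Leak channels with a doubled pore domain had 2 of 3 members higher. Kcnk1, of the TWIK family, measured 105, 102, 104 and 82.5 after inactivated baculovirus and 64.1, 104, 68.2 and 86.0 after PBS. PBS replicates 1 and 3 were the lowest, and the remaining 6 arrays lay between 82.5 and 105. The log2 difference was 0.26 (95% interval -0.02 to 0.54, limma adjusted p = 0.742). Kcnk3, an acid-sensitive TASK channel, stood at 0.21 ± 0.12 (log2 difference ± SE), with 38.1 to 61.1 after inactivated baculovirus and 37.0 to 43.3 after PBS. Kcnk2, the mechanosensitive TREK channel, stood at -0.07 ± 0.09.

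Kcnma1 encodes the BK channel, a large-conductance potassium channel opened by calcium and voltage together that repolarizes spikes. It measured 134, 121, 115 and 117 after inactivated baculovirus and 137, 146, 165 and 135 after PBS. Every PBS value lay above every baculovirus value, but baculovirus replicate 1 and PBS replicate 4 were nearly level. The means were 122 ± 8.66 and 146 ± 13.9 (SD, n = 4 each), a log2 difference of -0.23 (95% interval -0.42 to -0.03, limma adjusted p = 0.714). The other probe sets of Kcnma1 were below the level filter and not tested. Their means were higher after inactivated baculovirus, at 19.3 against 15.5 and 18.6 against 11.6.

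Kcnt1, the sodium-activated Slack channel, had the largest difference of the potassium channels with a higher mean. It measured 118, 166, 169 and 223 after inactivated baculovirus and 93.6, 153, 131 and 148 after PBS. Baculovirus replicate 1 lay inside the PBS range, and without it the groups were separated. The log2 difference was 0.32 (95% interval -0.04 to 0.68), and the other tested probe sets of the gene gave 0.13 ± 0.11 and 0.19 ± 0.105 (SE). Kcnn1, a small-conductance calcium-activated channel close to the level filter, stood at -0.15 ± 0.14, and Kcnn3 was below the filter at 22.5 ± 8.49 against 19.8 ± 11.1 (SD, n = 4 each).

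Hcn2 encodes a channel opened by hyperpolarization and cyclic nucleotides that carries the pacemaker current. It measured 159, 165, 166 and 170.3 after inactivated baculovirus, a narrow range, and 94.96, 155, 97.9 and 167 after PBS. PBS replicates 1 and 3 were far below the other 6 arrays, while PBS replicate 4 was higher than 3 of the 4 baculovirus arrays. The log2 difference was 0.36 (95% interval 0.04 to 0.68, limma adjusted p = 0.717). It was 0.03 without PBS replicates 1 and 3, a pair chosen after the values were seen.

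**Figure D2:**
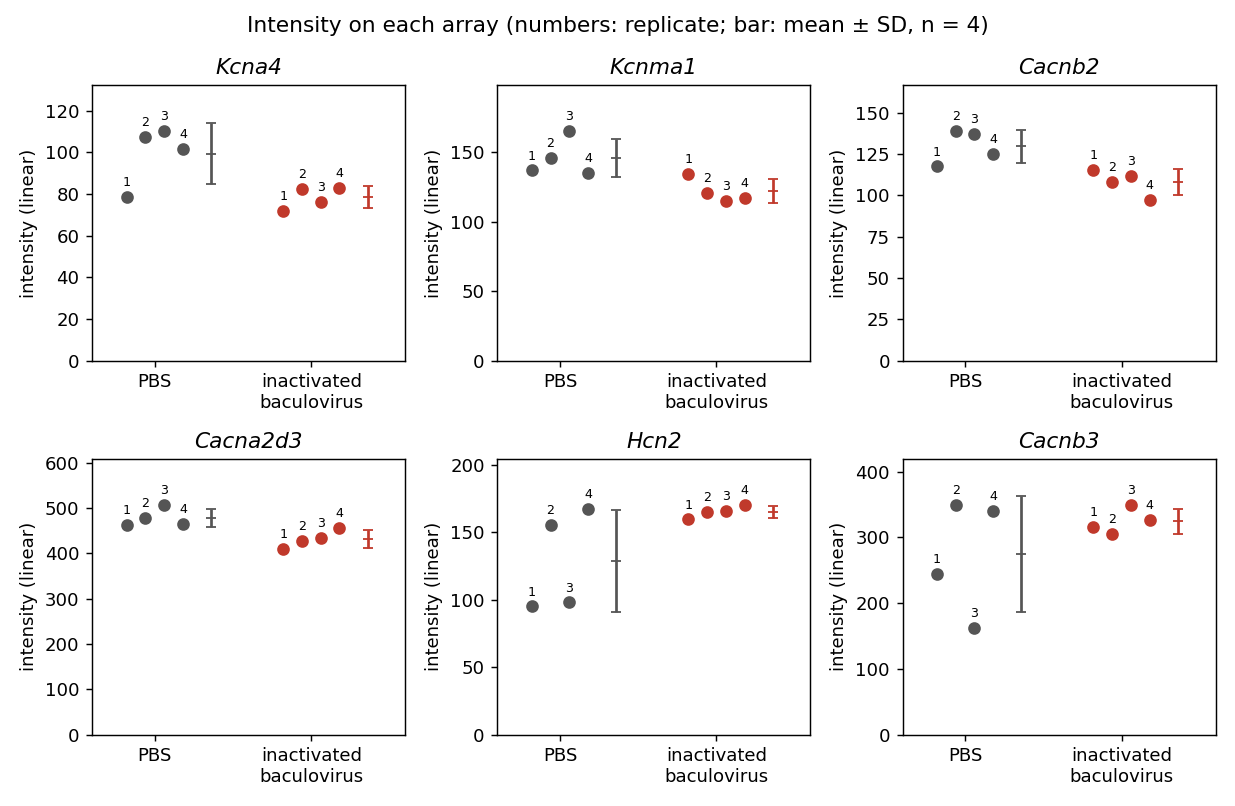
Intensity on each of the 8 arrays, on linear axes that start at 0, for 6 channel genes, with points numbered by replicate and bars for the mean ± SD of 4 arrays. Kcnma1, Cacnb2 and Cacna2d3 have every PBS array above every baculovirus array, Kcna4 has PBS replicate 1 inside the baculovirus range, and Hcn2 and Cacnb3 have PBS replicates 1 and 3 below all other arrays.

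All 5 sodium channel subunits tested had a lower mean, each with an interval that includes 0. Scn1a, the pore subunit of fast-spiking interneurons that is mutated in Dravet syndrome, measured 384, 332, 366 and 309.8 after inactivated baculovirus and 365, 404, 384 and 352 after PBS. The ranges overlapped between 352 and 384. Its log2 difference was -0.11 (95% interval -0.29 to 0.07) and -0.059 without baculovirus replicate 4, next to -0.11 ± 0.09 (SE) for Scn2a, the pore of axon initial segments, and -0.12 ± 0.13 for Scn3a, an early developmental form.

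Scn4b, a beta subunit abundant in striatum that supports resurgent current, measured 812, 996, 884 and 994 against 836, 1023, 992 and 1037. Replicate 1 was the lowest array in each group, and the log2 difference was -0.08 (95% interval -0.26 to 0.11). It was -0.018 without baculovirus replicate 1 and -0.145 without PBS replicate 1. Scn2b, another beta subunit, was among the steadiest members, at 642 ± 30.9 against 657 ± 28.9 (SD, n = 4 each), a log2 difference of -0.03 (95% interval -0.175 to 0.11). The probe set for Scn8a, the main pore of mature nodes of Ranvier, read only 7.63 ± 4.90 against 11.5 ± 4.04, so that this gene was not measured above the filter.

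Calcium channel pores had 2 of 4 tested members higher and 2 lower, all within 0.14 of no difference. Cacna1a encodes the P/Q-type channel of presynaptic terminals. It measured 42.3, 39.6, 45.7 and 45.6 after inactivated baculovirus and 34.0, 40.9, 33.2 and 44.9 after PBS. PBS replicates 1 and 3 were again the lowest, and the log2 difference was 0.13 (95% interval -0.10 to 0.365). The N-type gene Cacna1b stood at -0.01 ± 0.09 (log2 difference ± SE), and the L-type genes Cacna1c and Cacna1d at -0.01 ± 0.09 and 0.05 ± 0.10. Cacna1e (R-type) and Cacna1g (T-type) were below the filter, at 7.50 ± 4.99 against 7.63 ± 5.21 and 5.49 ± 2.50 against 7.07 ± 5.17 (SD, n = 4 each).

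Auxiliary subunits carry calcium channel pores to the membrane and tune their gating. Cacnb2, a beta subunit, measured 116, 108, 112 and 97.0 after inactivated baculovirus and 118, 139, 137 and 125 after PBS. The groups did not overlap, with baculovirus replicate 1 just under PBS replicate 1. The log2 difference was -0.23 (95% interval -0.425 to -0.04, limma adjusted p = 0.714), but the other tested probe set of this gene gave -0.002 ± 0.12 (SE).

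Cacna2d3, an alpha-2-delta subunit, measured 409.7, 428, 435 and 456 against 464, 478, 508 and 465. Its groups were separated with a small difference, -0.14 on the log2 scale (95% interval -0.29 to 0.005, limma adjusted p = 0.737). Cacna2d1, the alpha-2-delta subunit bound by gabapentin, gave 509 ± 29.4 against 508 ± 13.4 (SD, n = 4 each) and a log2 difference of 0.002 (95% interval -0.14 to 0.15). Cacnb3 measured 316, 305, 349.7 and 326 against 244, 349, 163 and 340.4, with PBS replicates 1 and 3 below all other arrays and a log2 difference of 0.285 (95% interval -0.10 to 0.67). Cacnb4 was below the filter at 22.9 ± 5.17 against 22.1 ± 1.23.

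**Figure D3:**
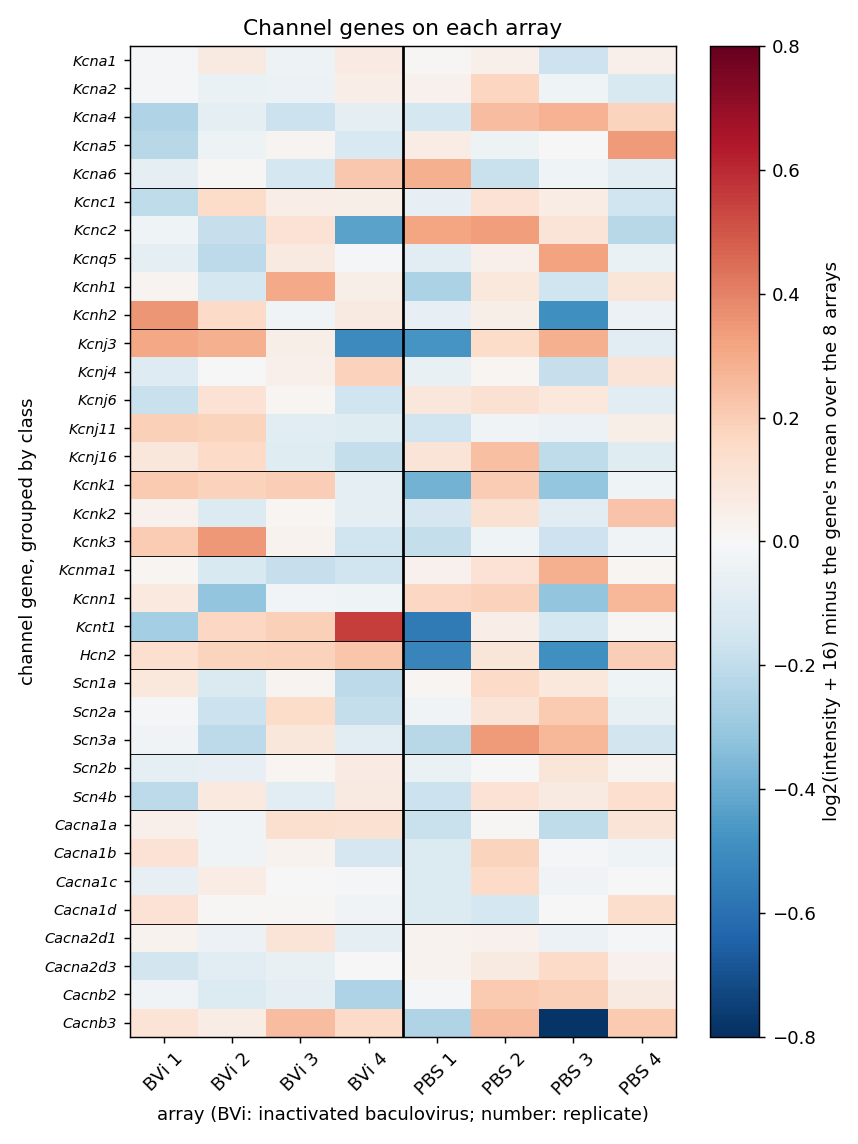
Deviation of log2(intensity + 16) from each gene's mean over the 8 arrays, for the 35 channel genes tested (rows, grouped by class) on each array (columns), in red above and in blue below the mean. Hcn2, Kcnk1 and Cacnb3 are blue on PBS replicates 1 and 3 and near or above the mean on PBS replicates 2 and 4.

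PBS replicates 1 and 3 were both low for part of the channels. For other members PBS replicate 3 was the highest of the 8 arrays, among them Kcna4 (110.3), Kcnma1 (165.3) and Scn2a (483.1). For 7 of the 35 members, PBS replicates 1 and 3 were the 2 lowest of the 8 arrays: Kcnh1, Kcnh2, Kcnk1, Kcnk3, Hcn2, Cacna1a and Cacnb3. That is 20.0% of the members, where 9.30% of all genes tested had the same order, and for 0 members, against 7.26% of all genes, were both arrays the highest. The count uses the brightest probe set of each gene. In the other tested probe sets of Cacna1a, PBS replicates 1 and 3 read 38.4 and 35.3, and 20.5 and 27.3, and were not both the lowest. These 2 arrays also had the lowest median log2 levels over all probe sets, 5.737 and 5.786, beside 5.793 to 5.848 on the rest. On PBS replicate 3 the level of 10 general neuron markers was -0.20 relative to their mean, and it lay between -0.08 and 0.11 on the other arrays, while on PBS replicate 1 it was 0.02. The level of 13 striatal projection neuron markers was lowest on PBS replicate 1, at -0.225, and was 0.017 on PBS replicate 3, with -0.213 to 0.233 on the rest. Drd2, the dopamine receptor of indirect-pathway neurons, was lowest on both, at 162 and 151, against 178 to 263. The part of these values in the order of the arrays was not tested. Without these 2 arrays 10 of the 35 members had a higher mean, and the log2 difference was 0.04 for Kcnk1, 0.01 for Cacna1a and 0.14 for Kcnh2. The pattern was noticed in the data, and its count is a description.

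**Figure D4:**
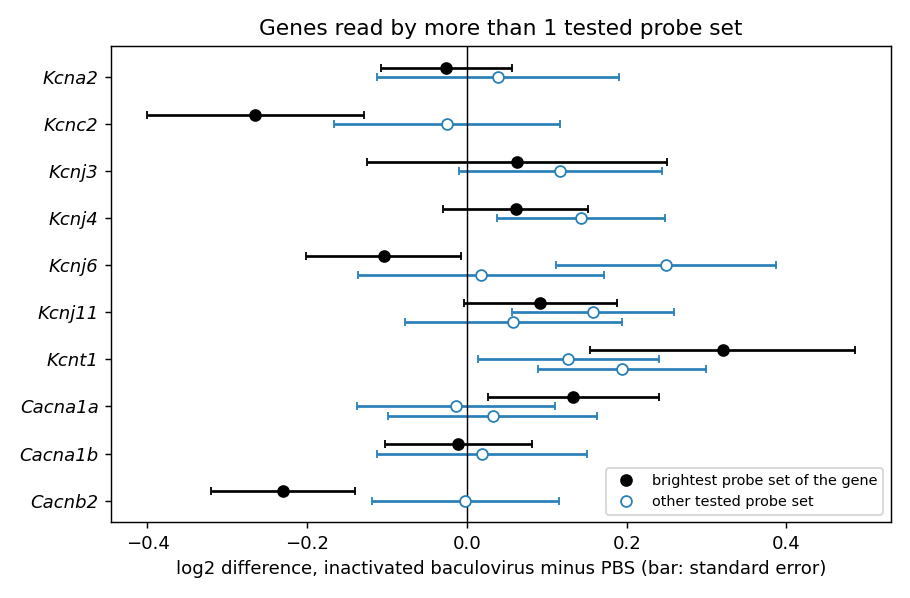
Log2 difference between the groups for each tested probe set of the 10 channel genes read by more than 1, with filled points for the brightest probe set, open points for the others and bars for the standard error. The 3 probe sets of Kcnt1 and of Kcnj11 all lie above 0, whereas those of Kcnj6 lie on both sides and the second one of Cacnb2 lies at 0.

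Among the 10 genes with more than 1 tested probe set, 6 had all of these on the same side of 0 and 4 did not, namely Kcna2, Kcnj6, Cacna1a and Cacna1b. Of 14 additional probe sets, 9 had the direction of the brightest one. For Kcnj6 they gave 0.25 ± 0.14 and 0.02 ± 0.15 (log2 difference ± SE) beside -0.10 ± 0.10. For Kcnj11 they gave 0.16 ± 0.10 and 0.06 ± 0.14 beside 0.09, and for Kcnj4 0.14 ± 0.105 beside 0.06. The steadiest members over the 8 arrays had a coefficient of variation of 4.16% in intensity, the most variable one 25.7%, and 14 of the 35 were under 10%.

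Other genes of the same channel families were read from a list of 85, of which 71 were on the array and 35 were tested. None passed in limma, with 0 higher and 0 lower, and 22 had a higher and 13 a lower mean, by 0.09 in the median. At an unadjusted p under 0.05, 2 were higher (5.71%, against 2.66% of all genes tested) and 4 lower (11.4%, against 3.92%). The groups were separated for 3 with higher values (8.57%, against 1.87%) and 4 with lower values (11.4%, against 2.31%). This list was chosen with earlier results of these data known, so its shares are a description only. The smallest p belonged to Kcnab1, a beta subunit of Kv1 channels, at 306, 299, 298 and 300.2 against 356, 417, 426 and 395 (log2 difference -0.385 ± 0.07, SE). Kcnip3, a calcium sensor that binds Kv4 channels, stood at 0.35 ± 0.07. The Kv4 genes Kcnd3 and Kcnd2 stood at -0.28 ± 0.10 and -0.19 ± 0.08, and the sodium leak channel gene Nalcn at -0.18 ± 0.07. These 5 genes, named for the smallest p, had separated groups and a limma adjusted p between 0.686 and 0.714. The other separated genes, both with higher values, were Kcnk13 at 0.18 ± 0.11 and Kcng2 at 0.11 ± 0.09. Cacng2, at 0.245 ± 0.11, was under the unadjusted p with overlapping groups.

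Cell type markers on the same arrays are given beside the channels. None passed in limma, and 55.7% of all genes tested had a higher mean. At an unadjusted p under 0.05, 1 general neuron and 2 striatal projection neuron markers were lower (background 3.92%). At that p 1 microglia and 1 endothelial or mural marker were higher (background 2.66%). Groups were separated only for 1 microglia marker, with higher values (background 1.87%). General neuron markers had 4 of 10 higher, with levels from -0.08 to 0.06 on baculovirus arrays and from -0.20 to 0.11 on PBS arrays. Striatal projection neuron markers had 3 of 13 higher, with -0.21 to 0.21 and -0.22 to 0.23, and cortical excitatory markers 4 of 7, with -0.03 to 0.19 and -0.09 to 0.06. Astrocyte markers had 4 of 9 higher and oligodendrocyte markers 3 of 8, while microglia markers had 8 of 9, with levels from -0.21 to 0.30 against -0.35 to 0.21. Endothelial and mural markers had 7 of 10 higher, with -0.01 to 0.07 against -0.09 to 0.004. The 4 choroid plexus and ependyma markers tested were all higher, with 0.06 to 0.52 against -1.39 to 0.19, the lowest being PBS replicate 4. The lowest intensity on any array was 1578 for Snap25, 976 for Ppp1r1b, 454 for Slc17a7, 1449 for Gfap, 1720 for Mbp and 173 for Aif1. The level filter lies at about 26.0. The part of cell content in the channel values was not tested.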

How the data were processed

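The authors deposited linear intensities, whose 2% trimmed mean lay between 100.021 and 100.023 on every array. The submitters' processing notes name GCOS and GCRMA; which made these values, and which array had which of the 2 labelling kits, is not stated in the sources used. All 8 columns belong to a sample. Of 31099 probe sets, 57 are controls; 20826 of the others have 1 gene symbol in the platform annotation, 436 several and 9780 none. All 83 member probe sets kept their symbol in RefSeq's table.

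Values were turned into log2(intensity + 16), without further normalization. Those whose mean exceeded the 40th percentile entered limma 3.58.1 in R 4.3.3 (two-sided, unblocked, variance trend), and p-values were adjusted by Benjamini-Hochberg over 18625 probe sets at a threshold of 0.05. A gene was represented by its brightest single-symbol probe set. Errors are SDs of intensities or limma SEs and 95% intervals; precision is set by the 4 arrays per group. The fit was tested on simulated data in which 200 probe sets were changed on the log2(intensity + 16) scale. At an adjusted p of 0.05 it recovered 0% of 1.25-fold, 69.5% of 1.5-fold and 98.5% of 2-fold changes. It made 1, 5 and 11 wrong calls among the unchanged probe sets. The simulated noise was normal and independent between arrays, so these shares may not hold where arrays share an animal.

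Genes with values on every array were those with an unadjusted p under 0.05 or separated groups, the smallest p of each channel class, and Kcnj16, Scn4b, Kcnj4 and Kcna1; Kcnt1 and Cacnb3 were added after their values were seen. The members, lists and this rule were chosen with earlier results of these data known. Of the other channel genes the 5 with the smallest p were named. The alternatives changed the pseudocount (1, 64), the scaling (quantile, median), the filter (none, 60th percentile) and the variance model, used the methods' t-test or a replicate block, left out arrays, or averaged each gene's probe sets.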

Additional observations from a re-analysis of the deposited data

Results flagged for a closer look

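In 3 of the 70 groups of 4 arrays formed by the 35 channel genes, 1 array lay far from the others; chance gives about 1 in 20 such groups. For Kcna1, PBS replicate 3 was at an intensity of 408, and the other PBS arrays at 463 to 474. For Kcnj6, PBS replicate 4 was at 100.6, and the others at 116 to 119. For Kcnk1, baculovirus replicate 4 was at 82.5, and the others at 102 to 105.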

How the results depend on the processing

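No probe set, channel gene of the set or other channel gene passed an adjusted p of 0.05 under any alternative run. Members with a higher mean, 16 in the reported setting, numbered 13 to 19 and those with a lower mean 16 to 22 with 1 array left out, and the median difference ran from -0.04 to 0.02. At an unadjusted p under 0.05, higher members numbered 2 without the variance trend (Hcn2 and Kcnh2), 0 with the methods' t-test and 3 with the replicate block (Hcn2, Kcnh2 and Kcnt1), and 0 to 4 with 1 array left out; lower members numbered 1 to 4. Separated members numbered 3 or 4 lower and 0 or 1 higher; the latter was Kcnt1, Kcnh2, Kcnk3 or Hcn2, depending on the array. Without PBS replicates 1 and 3, chosen after seeing the data, 10 members had a higher mean. In that setting 0 were higher at an unadjusted p under 0.05 and 7 were separated lower. Groups with fewer arrays separate more easily by chance. Shares over all genes are not given with arrays left out, so these counts have no background and are a description only.

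Signs changed for 4 of the 14 named members, whose differences in the reported setting lay between -0.104 (Kcnj6) and 0.061 (Kcnj4). Kcna1 ran from -0.013 (without PBS replicate 3) to 0.058 with 1 array left out and turned to -0.024 without PBS replicates 1 and 3, and Kcnj4 to -0.03 without both. Kcnj16, at -0.092 to 0.055 with 1 array left out, turned to 0.0067, 0.038, 0.0089 and 0.055 without baculovirus replicate 3 or 4 or PBS replicate 1 or 2, and Kcnj6 to 0.054 with the mean of its probe sets. The other tested probe sets of Kcnj6 gave 0.249 and 0.017, beside -0.104 for the brightest. The cause of the remaining sign changes was not tested.

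Deviations of same-numbered arrays correlated between -0.0051 and 0.016, and those of differently numbered arrays between -0.106 and 0.075. These correlations showed no pairing by replicate number, but they cannot settle which arrays share an animal. The replicate block gave 0 adjusted calls. The mean of probe sets gave no count over all probe sets, and the filter at the 60th percentile none for Kcnh2 and Cacna1a. Dim probe sets limit 10 of the 45 genes.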
